A study of Danio rerio with 4 samples.

Results

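Snail, Twist, Zeb and Prrx genes were examined as regulators of the mesenchymal state, in sorted cells of zebrafish embryos with 14 to 16 somites. The 10 listed genes were snai1a, snai1b, snai2, twist1a, twist1b, twist2, zeb2a, zeb2b, prrx1a and prrx1b, out of 25873 gene IDs in the deposited table. By their own symbol 7 were matched to an ID, and 3 were taken under a human-style name. The ID named ZEB2 (ENSDARG00000078416) stands here for zeb2b, since zeb2a has its own ID. The name PRRX1 belongs to ENSDARG00000033971 and ENSDARG00000042027, and the names do not say which is prrx1a and which is prrx1b. They are called the abundant and the scarce PRRX1 gene below, after their levels. The RefSeq gene table gives Twist1a as a synonym of its twist1b and Twist1b as a synonym of its twist1a, so the names twist1a and twist1b follow the Ensembl IDs ENSDARG00000030402 and ENSDARG00000076010. The other matched IDs are ENSDARG00000056995 (snai1a), ENSDARG00000046019 (snai1b), ENSDARG00000040046 (snai2), ENSDARG00000078266 (twist2) and ENSDARG00000062338 (zeb2a).

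Every library came from embryos of a laboratory strain carrying Tg(nkx2.5:ZsYellow), a transgene in which regulatory sequence of the heart gene nkx2.5 drives a yellow fluorescent protein. The ZsYellow-positive group was labelled as cardiopharyngeal progenitors with cardiomyocytes, and the ZsYellow-negative group as the remaining cells of those embryos. The groups had 2 replicates each, 4 libraries in all. A reporter marks the cells that hold the fluorescent protein, which need not be exactly those that express nkx2.5 at the time of sorting. The labels do not say whether replicates came from separate clutches, so the p-values measure the spread between these libraries, which may be technical. Library totals ran from 31996733 to 40133331 counts. The sort was checked on nkx2.5 (ENSDARG00000018004), which had 332.3 and 436.8 TPM in positive libraries against 5.05 and 4.48 TPM in negative libraries. TPM, transcript abundance scaled to a fixed library total, is a level per transcript length that allows genes to be compared with each other.

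These genes encode transcription factors best known from the epithelial-to-mesenchymal transition, in which cells loosen their junctions and become migratory. Snail and Zeb proteins are zinc finger repressors that bind E-box sequences, among them those of the E-cadherin gene. Twist proteins are basic helix-loop-helix factors that pair with E-proteins, and Prrx1 is a paired-type homeobox factor of limb and head mesenchyme in the mouse. In embryos the same genes mark neural crest, somite derivatives and lateral plate mesoderm.

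The set did not move as a block: in ZsYellow-positive cells snai1b and the abundant PRRX1 gene rose, while snai1a, snai2, twist2 and the scarce PRRX1 gene fell. Expression of twist1a, twist1b, zeb2a and ZEB2 did not pass the test. All 10 genes passed the filter on low counts. By the quasi-likelihood test of edgeR at an adjusted p under 0.05, 2 of the 10 were higher, beside 9.02% of the 19084 genes tested, and 4 were lower, beside 8.07%. In either direction 17.1% of all genes tested were called. The median log2 fold change of the 10 genes was -0.53, and that of all genes tested was -0.009. CPM are counts scaled to library totals that were normalized between libraries (TMM). In CPM, the positive libraries were both above the negative ones for 2 genes and both below them for 7. Of all genes tested, 27.9% lay above and 30.3% below in this way, or 58.3% in either direction. In these bulk samples, fewer cells of a type and less RNA per cell cannot be told apart.

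**Figure D1:**
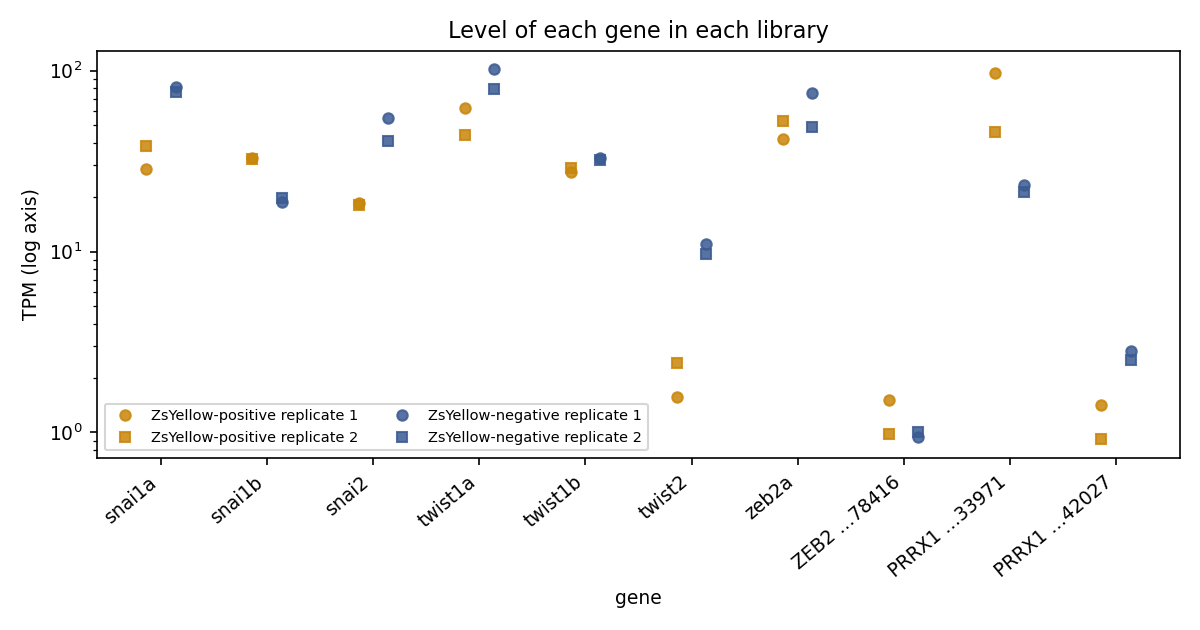
Level of each of the 10 genes in TPM, on a log axis, with one point per library (circles for replicate 1, squares for replicate 2). Positive and negative points are well apart for snai1a, snai1b, snai2, twist2 and both PRRX1 genes, and the positive points of the abundant PRRX1 gene are themselves far apart, at 97.4 and 45.9 TPM.

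The Snail genes changed in opposite directions. Expression of snai1a, which marks early and paraxial mesoderm in zebrafish, was 28.6 and 38.4 TPM in positive libraries against 81.1 and 76.1 TPM in negative libraries. Both positive libraries were low and the groups did not overlap. In the fit, snai1a differed by a log2 fold change of -1.22 (SE 0.18, adjusted p 0.00181 by edgeR). Its duplicate snai1b, reported in zebrafish to help keep cardiomyocytes within the heart wall, was 33.1 and 32.4 TPM in the positive libraries against 18.7 and 19.8 TPM in the negative ones. Here both positive libraries were high. The fitted difference of snai1b was a log2 fold change of 0.78 (SE 0.176, adjusted p 0.0155 by edgeR), or 1.72-fold. The change of snai1b was not called without negative replicate 1 (0.66, adjusted p 0.142 by edgeR) or without negative replicate 2 (0.92, adjusted p 0.0536 by edgeR), where the lone negative library is assumed to vary like the positive ones.

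Expression of snai2, also known as slug and widely used as a neural crest gene, was 18.6 and 18.2 TPM in positive cells and 54.9 and 41 TPM in negative cells. The positive replicates were almost equal and lay far below both negative libraries. That of snai2 was a log2 fold change of -1.35 (SE 0.178, adjusted p 0.00104 by edgeR). Beside the decreases of snai1a and snai2, the summed markers of neural crest and of paraxial mesoderm were also lower. The sums of the blood, neural and epidermal markers were lower as well, so a lower sum is not particular to crest and paraxial mesoderm. The matched neural crest genes summed to 27.4 to 50.3 CPM in positive against 94.1 to 106.7 CPM in negative cells, with crestin and FOXD3 called lower, 2 of the 4 tested. A further neural crest gene, ltk, was at 0 in at least 1 library and was not tested. SOX10, a defining crest gene, had 17.5 and 5.42 CPM against 26.1 and 25.3 CPM and was not called. The fourth tested crest gene, TFAP2E, lay the other way, with 2.22 and 0.56 CPM in positive against 0.444 and 0.828 CPM in negative libraries, overlapping and not called. Paraxial mesoderm genes summed to 129.3 to 228.5 CPM against 741.9 to 853.4 CPM, with 6 of 7 called lower. The part of these cell types in the Snail changes was not tested.

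Because the Snail genes moved apart, the make-up of the family differed between the groups. As a share of the 3 Snail genes' summed TPM, snai1b made up 41.2% and 36.4% in positive libraries against 12.1% and 14.5% in negative libraries. The share of snai1a was 39.4% ± 5.35 in positive and 54% ± 2.26 in negative cells, and that of snai2 was 21.8% ± 1.95 and 32.7% ± 3.93 (SD, n = 2 each). The summed Snail level was 80.3 and 89 TPM in positive against 154.7 and 136.9 TPM in negative cells. In TPM, snai1b stood at 1.16 and 0.844 times snai1a in positive libraries, and at 0.231 and 0.26 times in negative libraries. On the log2 scale that ratio differed by 2.01 between the groups, and the libraries of the groups did not overlap. With 2 libraries against 2, an exact two-sided permutation test cannot give a p below 0.333, which is the value it gave for this ratio. Of the 6 gene pairs compared, zeb2a to ZEB2 had a p of 0.667 by that test, and its groups overlapped. All these ratios are therefore descriptions.

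**Figure D2:**
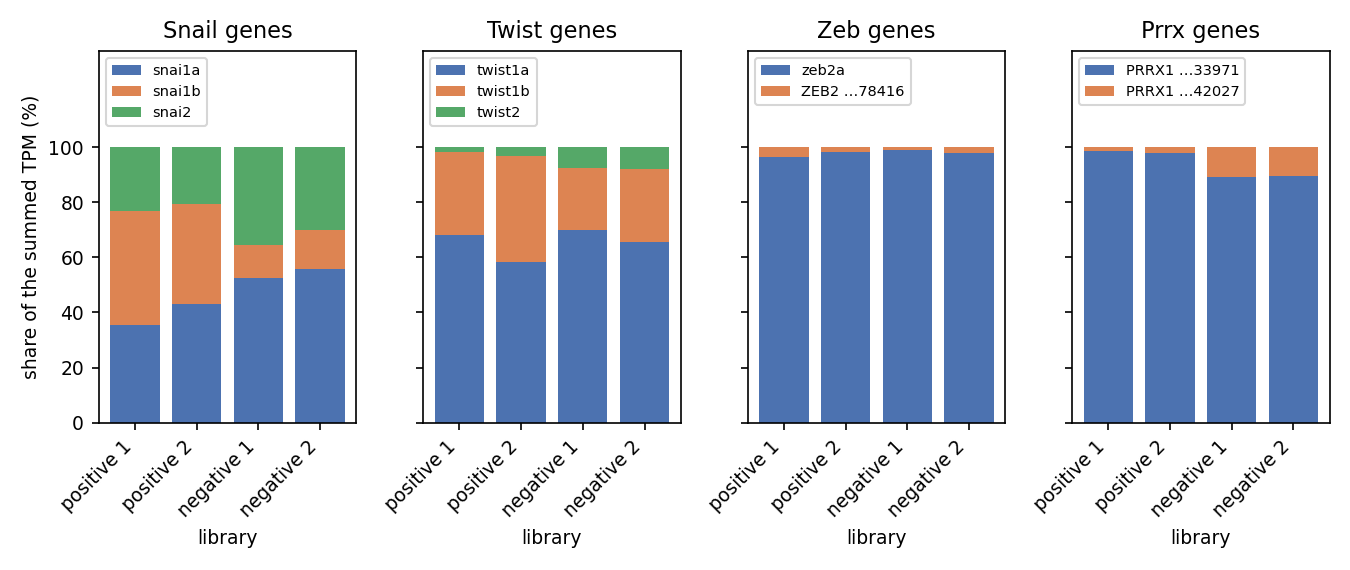
Share of each gene in the summed TPM of the listed genes of its family, in percent, for each of the 4 libraries. The snai1b share is 41.2% and 36.4% in positive libraries against 12.1% and 14.5% in negative ones. Shares of twist2 and the scarce PRRX1 gene are smaller in positive libraries. In each library zeb2a takes nearly all of the sum of zeb2a and ZEB2, which leaves out zeb1a and zeb1b.

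Among the Twist genes twist2 had the largest change, and twist1a and twist1b did not pass the test. Expression of twist2, known as Dermo1 and in mammals a factor of dermal and muscle precursors, was 1.56 and 2.42 TPM in positive cells and 11 and 9.67 TPM in negative cells. It was low in both positive libraries, where it had 44 and 79 counts, and the groups did not overlap. It differed by a log2 fold change of -2.36 (SE 0.286, adjusted p 6.44e-04 by edgeR), the largest decrease among the 10 genes. Expression of twist1a, a gene of head mesenchyme and somite derivatives, was 62.1 and 43.9 TPM against 101.9 and 79.1 TPM. The positive libraries lay below the negative ones, but the replicates of each group were spread. The log2 fold change of twist1a was -0.73 (SE 0.224), with an adjusted p of 0.0542 by edgeR and a range of 1.55e-04 to 0.246 over the alternatives. It was -1.05 without positive replicate 1, a fit that takes its spread from the negative libraries alone, and -0.45 without positive replicate 2. It was called with the DESeq2 Wald test, upper-quartile factors, the replicate block (adjusted p 0.0205) and no low-count filter.

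Expression of twist1b had the smallest change of the 10, with 27.7 and 29.1 TPM in positive and 33.1 and 31.9 TPM in negative cells. Its fitted log2 fold change, -0.17 (SE 0.177, adjusted p 0.577 by edgeR), was smaller than its error. The twist1b share of the Twist total was 34.4% ± 5.84 in positive and 24.5% ± 2.66 in negative cells (SD, n = 2 each), and that of twist2 was 2.46% ± 1.06 against 7.77% ± 0.353. Between twist2 and twist1b the log2 TPM ratio differed by -2.21 between the groups. For twist1a over twist1b the difference was -0.59. The summed Twist level was 91.4 and 75.4 TPM in positive and 146.0 and 120.6 TPM in negative cells.

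The Zeb genes did not pass the test. Expression of zeb2a, a gene of neural crest and nervous system development, was 41.9 and 52.4 TPM in positive and 75.3 and 48.7 TPM in negative cells, so the groups overlapped in TPM. In CPM they just did not, with 128.7 and 154.6 against 197.0 and 156.2. The log2 fold change of zeb2a was -0.32 (SE 0.192, adjusted p 0.311 by edgeR). The ID named ZEB2 was near 1 TPM, with 301 and 227 counts in positive and 191 and 217 in negative libraries. The fit gave a log2 fold change of 0.39 (SE 0.298, adjusted p 0.426 by edgeR), and its groups overlapped. Of the summed TPM of zeb2a and ZEB2, zeb2a made up 97.3% ± 1.16 in positive and 98.4% ± 0.56 in negative cells (SD, n = 2 each). The Zeb1 genes were not listed members and are not in that sum. Mean levels of zeb1a were 7.48 TPM in positive and 5.96 TPM in negative cells, and those of zeb1b 23.1 and 16.8 TPM.

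The PRRX1 genes changed in opposite directions. The abundant PRRX1 gene had 97.4 and 45.9 TPM in the positive libraries against 23.3 and 21.3 TPM in the negative ones. Both positive libraries were above both negative ones, but positive replicate 1 was far above positive replicate 2. The fit gave a log2 fold change of 1.73 (SE 0.336, adjusted p 0.00773 by edgeR), the largest increase of the 10 genes. Leaving out positive replicate 1 lowered it to 1.03 and leaving out positive replicate 2 raised it to 2.21. In those fits the spread comes from the negative libraries alone, which were close to each other (31 and 32.1 CPM) while the positive ones were not (146.1 and 63.1 CPM), so their calls say nothing about stability. Without negative replicate 1 it was 1.70 (adjusted p 0.0736 by edgeR), and without negative replicate 2 it was 1.76 (adjusted p 0.0716 by edgeR), neither called. Other genes, of mesoderm and of other cell types, also differed between the positive replicates, but not all in the same direction. The fin and heart field gene TBX5 was matched to tbx5a by a synonym. It had 20 and 7.53 CPM in positive libraries against 0.805 and 0.769 CPM in negative libraries. GATA6 had 194.0 and 84.5 CPM against 5.78 and 6.06 CPM. TBX20, by contrast, was lower in positive replicate 1, with 51.3 and 84.7 CPM, as was the endothelial gene kdrl, with 142.7 and 227.5 CPM. Other markers of fin bud and lateral plate differed less between the positive replicates than TBX5. HAND2 had 302.5 and 249.5 CPM, fgf24 8.83 and 7.79 CPM and OSR1 9.63 and 7.53 CPM. MEIS1, matched to meis1b by a synonym, was lower in replicate 1, with 315.6 and 378.2 CPM. As a list, the cardiopharyngeal genes summed to 1702.0 and 1677.4 CPM in the positive replicates. Sums of neural crest (50.3 and 27.4 CPM), paraxial mesoderm (228.5 and 129.3 CPM) and epidermal markers (1391.9 and 1028.1 CPM) were higher in positive replicate 1. Neural markers (376.2 and 339.4 CPM) and blood markers (545.3 and 541.5 CPM) differed less. Endothelial (1231.1 and 1634.0 CPM) and cardiomyocyte markers (1461.1 and 1559.5 CPM) were lower in it. The sclerotome genes summed to 43.3 and 19.2 CPM in positive and 25.3 and 24.5 CPM in negative libraries, although PAX9 among them had 12.9 and 11.4 CPM in the positive replicates. The part of these cell populations in the level of the abundant PRRX1 gene was not tested.

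The scarce PRRX1 gene had 66 and 51 counts in positive and 145 and 130 in negative libraries, or 1.42 and 0.916 TPM against 2.82 and 2.51 TPM. Its positive libraries were both low and the groups did not overlap. The fit gave a log2 fold change of -1.21 (SE 0.339, adjusted p 0.0395 by edgeR), and over the alternatives the adjusted p ran from 0.00224 to 0.165. It was not called without positive replicate 2 (-0.89), negative replicate 1 (-1.18) or negative replicate 2 (-1.23), nor with limma on log2(TPM + 1), which gave -0.77 (adjusted p 0.0501), or on log2(TPM + 0.1), which gave -1.15 (adjusted p 0.0592). The abundant gene made up 98.6% and 98% of the Prrx total in positive libraries and 89.2% and 89.4% in negative ones. Reads shared by duplicated genes can be divided between them in counting, so values of a gene with a close duplicate, such as these, are less certain than those of a single gene.

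**Figure D3:**
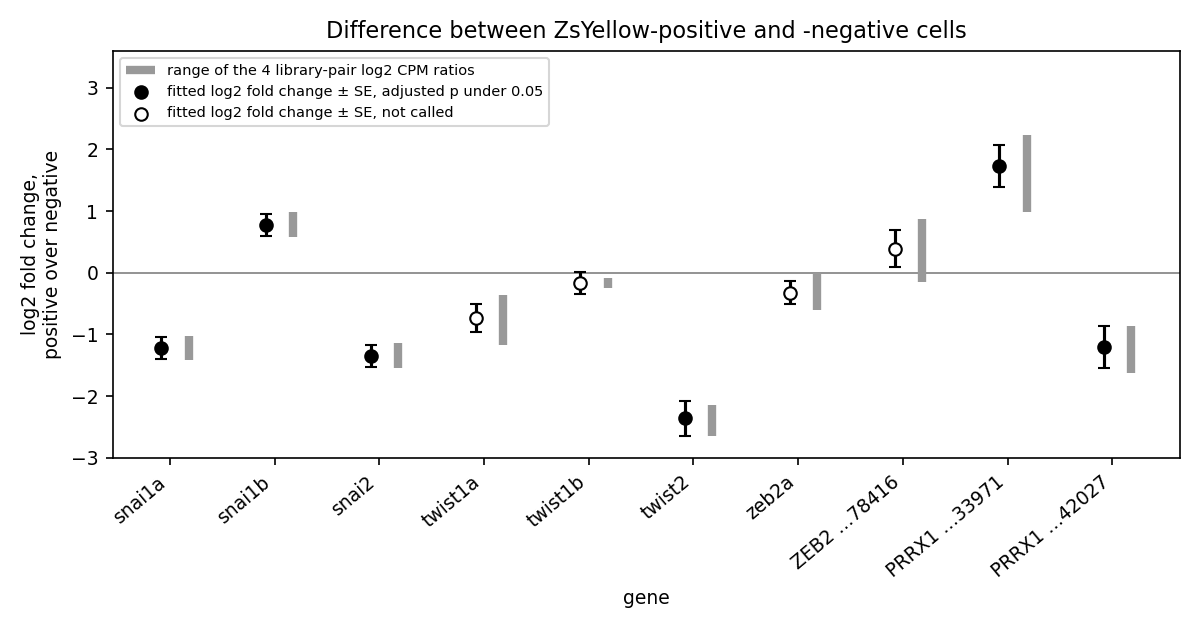
Log2 fold change of each gene, positive over negative, with its SE from the edgeR fit (filled where the adjusted p was under 0.05), and as a grey bar the range of the log2 CPM ratios over the 4 positive-by-negative library pairs. The bars of snai1b and the abundant PRRX1 gene lie above 0, those of snai1a, snai2, twist2 and the scarce PRRX1 gene lie well below it, and that of ZEB2 crosses it.

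The order of the levels differed between the groups. In positive cells the abundant PRRX1 gene (mean 71.6 TPM), twist1a (53 TPM) and zeb2a (47.2 TPM) came first, and neighbours in that order overlapped between libraries. Next were snai1a (33.5 TPM) and snai1b (32.7 TPM), which also overlapped, then twist1b (28.4 TPM) and snai2 (18.4 TPM). At the low end were twist2 (1.99 TPM), ZEB2 (1.25 TPM) and the scarce PRRX1 gene (1.17 TPM), of which the last 2 overlapped. In negative cells twist1a (90.5 TPM) and snai1a (78.6 TPM) led, overlapping each other, followed by zeb2a (62 TPM) and snai2 (47.9 TPM), which overlapped too. After twist1b (32.5 TPM) came the abundant PRRX1 gene (22.3 TPM) and snai1b (19.3 TPM), whose libraries did not overlap.

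The genes most like the extremes of the set were sought over the 4 libraries by the root mean square difference of centred log2 CPM. For the abundant PRRX1 gene, among 8502 candidates, the nearest were the homeobox gene meis1a (ENSDARG00000002937, difference 0.0591), C1QTNF12 (ENSDARG00000070681, 0.0683) and the small Maf gene maff (ENSDARG00000028957, 0.0892). Expression of meis1a was 75 and 33.2 CPM in positive and 17.6 and 16.5 CPM in negative libraries, with the same excess in positive replicate 1. For twist2, among 8503 candidates, the nearest were znfl1i (ENSDARG00000079126, 0.0387), the ID named METTL21EP (ENSDARG00000016343, 0.0388) and an ID named CRABP2 (ENSDARG00000030449, 0.106), after a retinoic acid binding protein. A likeness over 4 libraries is a description only.

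**Figure D4:**
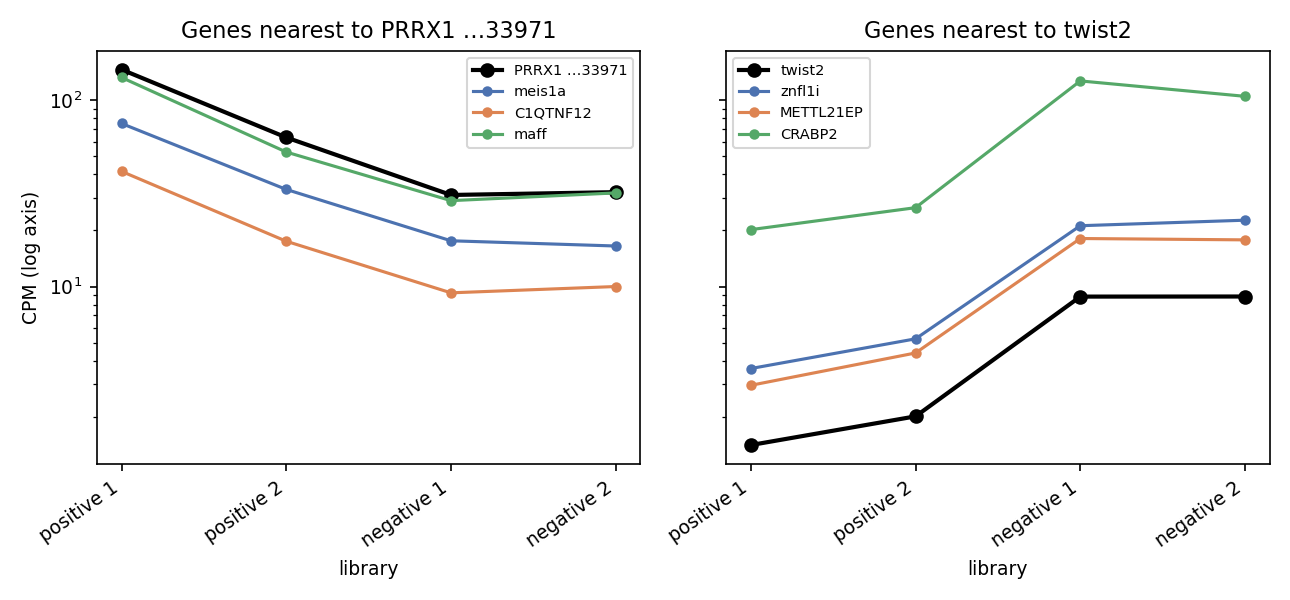
CPM on a log axis in each library for the abundant PRRX1 gene (left) and twist2 (right), in black, with the 3 genes of most similar profile in colour. Lines only join the points of a gene. The left profiles are highest in positive replicate 1 (meis1a at 75 CPM against 33.2 in replicate 2), and the right profiles are low in both positive libraries.

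Among 26 relatives, partners and corepressors of these factors, 4 were called, or 15.4%, close to the 17.1% of all genes tested. Of 11 other matched regulators of the transition, edgeR called 2 lower and 0 higher. At an unadjusted p under 0.05, 1 was higher and 3 were lower, and DESeq2 and limma also called 0 higher. The crest and epidermal factor TFAP2A fell from 125.0 ± 4.29 to 31.3 ± 5.55 CPM (SD, n = 2 each), or -2.00 on the log2 scale (adjusted p 1.94e-04 by edgeR). The third Snail paralogue, snai3, was scarce, with 2 and 2 counts in positive and 17 and 22 in negative libraries. Its positive level was 0.102 times the negative one (95% exact counting interval 0.0264 to 0.282, covering the counting error of reads only). It passed the low-count filter only through the negative libraries, so it could not have been called higher. Its lower call (adjusted p 0.0161 by edgeR), 1 of the 2 in this list, is therefore no separate support. A filter of 1 CPM removes it. The log2 fold changes of zeb1a and ZEB1, matched to zeb1b by a synonym, were 0.28 (adjusted p 0.387 by edgeR) and 0.48 (adjusted p 0.128). For twist3 the change was -0.43 (adjusted p 0.505 by edgeR), at about 1 CPM.

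Twist proteins act as dimers with E-proteins, which Id proteins sequester. Of the 9 genes in this list, 1 was higher and 1 was lower, beside 9.02% and 8.07% of all genes tested. Both calls were Id genes. Expression of id2b was 48.5 ± 11.4 CPM in positive against 21.5 ± 2.48 CPM in negative cells (log2 fold change 1.17, adjusted p 0.00538 by edgeR), and that of ID4 was 5.5 ± 1.16 against 11.3 ± 1.37 CPM (log2 fold change -1.04, adjusted p 0.0217 by edgeR). The other Id genes, ID1, ID2 and ID3, had log2 fold changes of -0.52, 0.05 and -0.33, and none was called. Here ID2 was matched to id2a, the duplicate of id2b, by a synonym. The E-protein genes tcf3a, tcf3b, TCF4 and TCF12 differed by log2 fold changes of -0.14, 0.12, -0.71 and -0.06. Their adjusted p in edgeR ran from 0.393 to 0.851. TCF4 was scarce, with 0.835 and 0.407 CPM in positive against 1.03 and 0.976 CPM in negative libraries. Of 6 matched genes for corepressors and chromatin partners of Snail and Zeb, edgeR, DESeq2 and limma each called 0. At an unadjusted p under 0.05, 1 was higher and 1 was lower.

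Genes that mark either end of the transition were compared last. Of 16 epithelial effector genes, 4 were lower and 0 were higher, beside 8.07% and 9.02% of all genes tested, with a median log2 fold change of -0.56 beside -0.009 over all genes. At an unadjusted p under 0.05, 1 was higher and 7 were lower, and DESeq2 and limma also called 0 higher. The lower ones were the claudin genes cldnh (listed as cldn3c, -2.07, adjusted p 2.09e-04 by edgeR) and cldni (-1.26, adjusted p 0.00204 by edgeR), the polarity gene crb3b (-1.49, adjusted p 0.014 by edgeR) and the keratin gene krt4 (-1.12, adjusted p 0.0162 by edgeR). The E-cadherin gene cdh1, a known target of Snail and Zeb repression, was 214.3 and 232.8 CPM in positive and 141.6 and 172.7 CPM in negative libraries. It lay higher in both positive libraries but did not pass the test (log2 fold change 0.51, SE 0.18, adjusted p 0.0899 by edgeR). Of 11 epithelial state regulators, 2 were lower and 1 was higher, beside 8.07% and 9.02% of all genes tested. The lower ones were grhl2a (-1.25, adjusted p 0.0204 by edgeR) and the splicing regulator ESRP2 (-0.71, adjusted p 0.0422 by edgeR). The level of grhl2a was low, at 1.75 against 4.16 CPM. Its duplicate GRHL2, matched to grhl2b by a synonym, was 9.82 against 10.6 CPM (-0.11) and was among the 8 not called. The higher one was cdx1b, at 1.47 ± 0.361 against 0.356 ± 0.0854 CPM (2.04, adjusted p 0.0176 by edgeR). The 5 epidermal markers, 4 of which (krt4, krt5, cdh1 and epcam) are also in the epithelial list, summed to 1028.1 to 1391.9 CPM in positive against 1839.5 to 2213.6 CPM in negative cells, and their part in these differences was not tested.

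Of 22 mesenchymal effector entries 11 were matched. Of these 11 genes edgeR called 3 higher and 0 lower, beside 9.02% and 8.07% of all genes tested, with a median log2 fold change of 0.22. At an unadjusted p under 0.05, 4 were higher and 2 were lower. DESeq2 called 3 higher and 2 lower, while limma called 2 higher and 0 lower. The 3 called higher by edgeR were the growth factor receptor genes PDGFRA (1.17, adjusted p 0.00167) and PDGFRB (0.78, adjusted p 0.0158) and the cadherin gene CDH11 (0.96, adjusted p 0.00679). Expression of PDGFRA was 212.3 ± 7.65 CPM in positive against 94.5 ± 6.92 CPM in negative cells. The N-cadherin gene CDH2 was 293.2 ± 64.2 against 320.7 ± 38.4 CPM and was not called (-0.13, adjusted p 0.732 by edgeR). Lower in both positive libraries, but just short of a call, were the collagen genes col1a1a (-1.21, adjusted p 0.0515 by edgeR) and COL1A2 (-0.83, adjusted p 0.0511 by edgeR). The name vim belongs to several IDs and was not matched. Endothelial markers were higher beside these genes, with 6 of 7 called and a sum of 1231.1 to 1634.0 CPM in positive against 641.2 to 718.2 CPM in negative cells, and their part was not tested.

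**Figure D5:**
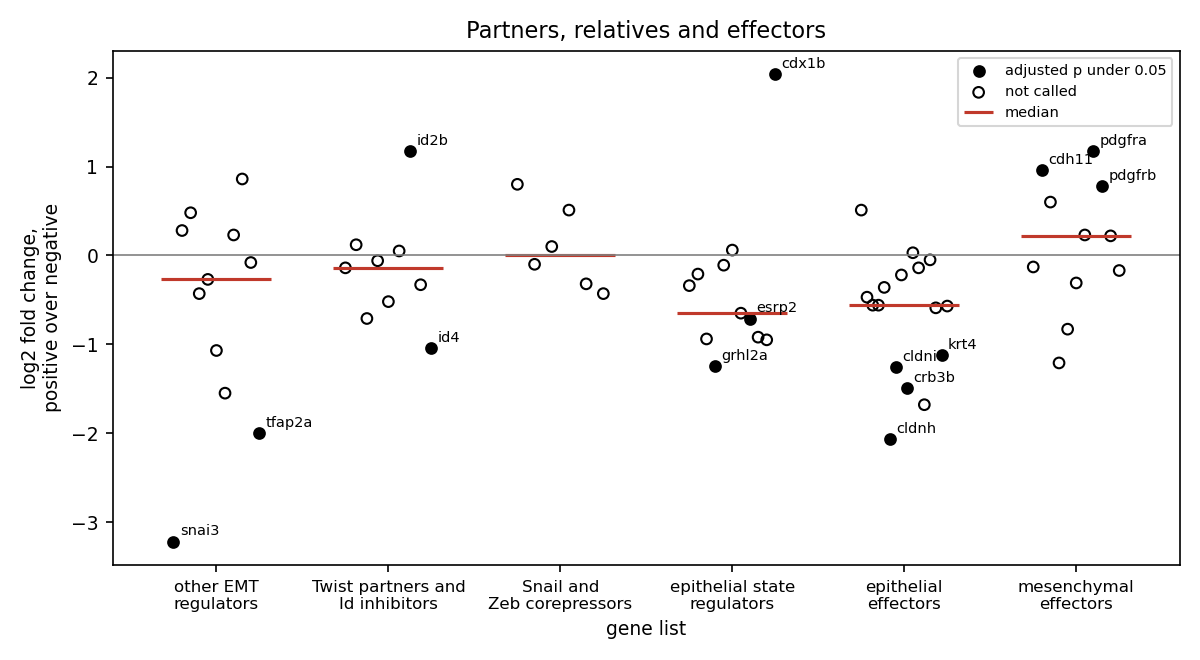
Log2 fold change, positive over negative, of each tested gene in the 6 lists of relatives, partners, corepressors and effectors, filled where the edgeR adjusted p was under 0.05, with the median of each list in red. Of the 64 genes 14 were called, or 21.9%, beside 17.1% of all genes tested, 5 of them above 0 and 9 below 0. Among those called are 4 epithelial effectors below 0 and 3 mesenchymal effectors above 0.

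The labelled cell types were checked on marker lists. All 8 matched cardiopharyngeal genes and all 4 cardiomyocyte genes were called higher in positive cells, where the cardiomyocyte genes summed to 1461.1 to 1559.5 CPM against 26.2 to 32.6 CPM. The 8 include nkx2.5, the gene whose reporter was sorted on, so its call is no separate check of the label. Over all genes tested, 9.02% were called higher and 8.07% lower. In the sclerotome list, PAX9 was the 1 gene of 3 called higher and none was lower. The groups overlapped for the others, foxc1b and NKX3-2. Of 6 blood genes 4 were lower and 1, SPI1 (matched to spi1b by a synonym), was higher. All 4 neural genes were lower, and of 5 epidermal genes 1 was lower. In the fin bud and lateral plate list, 2 of 6 genes were higher, TBX5 and HAND2, the latter also in the cardiopharyngeal list. The 3 lower ones were fgf24 (log2 fold change -0.89), OSR1 (-2.00) and an ID named HOXA5, matched to hoxb5b by a synonym (-2.14). The names HOXA5 and hoxb5b point to different Hox clusters, so this ID may not be the listed gene.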

How the data were processed

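RNA was sequenced from 2 ZsYellow-positive and 2 ZsYellow-negative libraries. Per the labels' protocols, libraries came from about 50 ng of RNA with poly(A) priming and tagmentation, read as pairs of 50 nt. No molecular identifiers are mentioned there, so the interval for snai3 covers the counting error of reads, not that of molecules. Salmon 1.2.1, BWA 0.7.12-r1039 and bedtools 2.25.0.64 are named in the submitters' processing notes, without roles, together with builds Zv9 and GRCz11. Strand use is not given in the sources used here, and no coordinates are printed. The table holds estimated counts, which the authors deposited as whole numbers (per the file headers integer counts, with 20 entries at 0 beside a TPM above 0), and log2(TPM + 1) per the file headers. TPM was recovered from the latter and sums to 1000000 per library.

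Counts were fitted on all genes with edgeR 4.0.16 in R 4.3.3 (quasi-likelihood F test, TMM, filterByExpr with minimum count 10 and minimum total 15), and p-values were Benjamini-Hochberg adjusted over 19084 genes. The SE is the size of the log2 change over the square root of the F statistic. CPM uses TMM-scaled totals. limma 3.58.1 and DESeq2 1.42.0 served as alternatives. The fit was also run on simulated counts with the same dispersion for every gene, which is simpler than these data. No result here rests on that run.

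Genes named are the 10 members, nkx2.5, the E-protein, Id, snai3, zeb1a, zeb1b, cdh1, cdh2 and vim entries, up to 4 called genes per direction of each list, and the 3 nearest profiles (mean at least 10 CPM) of the called members with the highest and lowest change. GATA6, TBX5, SOX10 and the other markers were named after their values were seen. Of 84 list entries 64 matched an ID, and of 68 marker entries 56 did. The others are not analysed here. The members and lists were chosen with earlier results of these data known.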

Additional observations from a re-analysis of the deposited data

How the results depend on the processing

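Log2 fold changes of the 10 genes kept their sign under each of the 13 alternatives run, and the decreases of snai1a (-1.38 to -1.05), snai2 (-1.46 to -1.22) and twist2 (-2.64 to -1.93) stayed called. With a lone library in a group, the fit assumes that it varies like the other group, so such calls show little of stability. Leaving out 1 library gave 0.66 to 0.92 for snai1b, -1.05 to -0.45 for twist1a, 1.03 to 2.21 for the abundant and -1.57 to -0.89 for the scarce PRRX1 gene. The changes of twist1a (-0.73), twist1b, zeb2a and ZEB2 were not called as reported. That of twist1a was called with upper-quartile factors (-0.83), which move the median of all genes to -0.109, and with no low-count filter (-0.72), the DESeq2 Wald test (-0.72) and the replicate block (-0.76). The scarce PRRX1 gene was not called with limma (-0.77 and -1.15). At an adjusted p under 0.01, a stricter threshold, snai1b (0.78) and the scarce PRRX1 gene (-1.21) were lost, leaving 1 member higher. The causes of the other shifts were not tested.

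Leaving out 1 library gave 0 to 2 members higher and 3 to 5 lower, and 852 to 2446 of all genes higher and 747 to 1846 lower. At an adjusted p under 0.01, 966 of all genes were higher and 784 lower. Of 156 list counts recomputed, 118 stayed within 1.5 times, and these include counts that were 0 both times, which show little of stability. With 1 library left out, other regulators had 0 to 1 higher and 1 to 4 lower, Twist partners 0 to 1 and 0 to 2, corepressors 0 to 1 higher, epithelial regulators 0 to 1 and 0 to 4, epithelial effectors 3 to 7 lower, and mesenchymal effectors 1 to 4 and 0 to 3. Other regulators had 1 lower with the 1 CPM filter and at 0.01. At 0.01, Twist partners had 0 lower, epithelial regulators 0 higher and 0 lower, and epithelial effectors 2 lower. With both limma fits, epithelial regulators had 0 higher and 1 lower. Mesenchymal effectors had 2 lower with upper-quartile factors, no filter, DESeq2 and the replicate block, and 1 with the 1 CPM filter. The replicate numbers were not shown to pair the samples (correlation of deviations -0.092, and labels that tie no number to a shared batch), and the block changed no member's call but that of twist1a. The 6 log2 TPM ratios within families kept their sign with CPM in place of TPM and with 1 library left out. Counts under 100, as for the scarce PRRX1 gene and twist2, limit precision.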
